A study of Mus musculus with 6 samples.

Results

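The T-box and Pitx limb identity factors are 8 genes, Tbx1, Tbx2, Tbx3, Tbx4, Tbx5, Tbx15, Tbx18 and Pitx1, taken by symbol from the 55401 genes of the count table. They are transcription factors that act in limb patterning or mark positions and fibre types in limb tissue. Of the 8, 7 were chosen as a family, while Tbx4 was picked for its rise in these data. Its difference between groups is therefore given as a description without a test. All 8 genes had at least 1 count, and 7 passed the filter on low counts, under which 17222 genes were tested. Tbx5 was the member that did not pass.

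RNA-seq was performed on tibialis anterior (TA) muscle, a muscle of the lower hindlimb, that had received either AAV-GFP (n = 3) or AAV-RBM20 (n = 3). All 6 samples came from C57BL/6 mice of the labelled genotype HSA-MCM-Bmal1-/-, in which a tamoxifen-inducible Cre under the human skeletal actin promoter deletes the clock gene Bmal1 in muscle fibres, so that the other cells of the muscle keep the gene. Mice were kept to 12 to 16 weeks of age before recombination. Tamoxifen was given at 2 mg daily over 5 days, the adeno-associated virus (AAV) followed 4 weeks later, and the muscle was taken 4 weeks after the virus. There was no group without the knockout and none without a virus, so every value below is from knockout muscle that carried a vector. The study's methods give a higher vector dose for AAV-RBM20, with the Rbm20 cDNA under a viral CMV promoter, so dose and transgene cannot be told apart. The labels do not state whether the samples of a group were from separate animals, and the tests measure the spread between these samples.

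T-box proteins bind DNA through the domain that names the family, and some activate while others repress their targets. In the limb bud, Pitx1 is expressed in the hindlimb, where it acts upstream of Tbx4, whereas Tbx5 is the forelimb counterpart of Tbx4. Tbx2 and Tbx3 are closely related repressors that pattern the limb, Tbx15 is a factor of skeletal development and of fast glycolytic muscle fibres, Tbx18 is known from somites and from the mural cells of vessels, and Tbx1 is best known from the pharyngeal arches.

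Total counts ranged from 41400132 to 54226618 per library. Rbm20, the gene carried by the vector, was at 166 ± 3.20 CPM (counts scaled to a library of 1e+06 counts with TMM factors; SD, n = 3) with AAV-GFP, against 484 ± 71.0 CPM in AAV-RBM20, with no overlap and an adjusted p of 0.121 in edgeR's test, or 0.0107 with the replicate number as a block. Reads of the vector and of the endogenous gene cannot be told apart. Bmal1 itself (Arntl) was at 35.0 ± 3.63 CPM with AAV-GFP and 26.3 ± 1.63 CPM with AAV-RBM20. Its libraries did not overlap between groups, at 31.0 to 38.1 CPM against 24.5 to 27.6 CPM. On the log2 scale the fitted difference of Arntl was -0.41, which did not pass in edgeR's test (adjusted p 0.618). Counts per gene do not show which cells these Arntl transcripts came from, and their source was not tested. The libraries numbered 3 in the titles stood apart in both groups. Ttn took 4.48% of the counts in AAV-GFP replicate 3 and 9.05% in AAV-RBM20 replicate 3, against 16.9% to 17.8% in the other 4. Of the markers of skeletal muscle fibres, Myh4, the fast IIb myosin heavy chain, was at 15177 CPM or more in every library, whereas Myh7, the slow myosin heavy chain, reached at most 5.97 CPM and was at 0.095 CPM in AAV-GFP replicate 3.

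The levels of the members spanned more than 3 orders of magnitude. Compared per length, as CPM per kilobase of merged exons over all 6 libraries, Tbx15 was highest at 72.1 ± 12.1 (SD, n = 6) and made up 80.0% of the summed level of the 8 members. Tbx1 followed at 14.8 ± 1.21 and 16.4% of the sum. The lowest Tbx15 library was 3.58 times the highest Tbx1 library, and the lowest Tbx1 library was 7.82 times the highest Tbx3 library, so these 2 members were each separate from the rest. Tbx3 at 1.16 ± 0.41, Tbx2 at 0.91 ± 0.28, Tbx4 at 0.72 ± 0.29 and Tbx18 at 0.37 ± 0.13 formed a low group, in which the ranges of neighbours in the order overlapped. Pitx1 was lower, at 0.11 ± 0.054, below every library of Tbx18. Tbx5 came last at 0.018 ± 0.017, with a range that overlapped that of Pitx1. The order was the same with the length of the longest transcript and with the deposited normalised values.

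**Figure D1:**
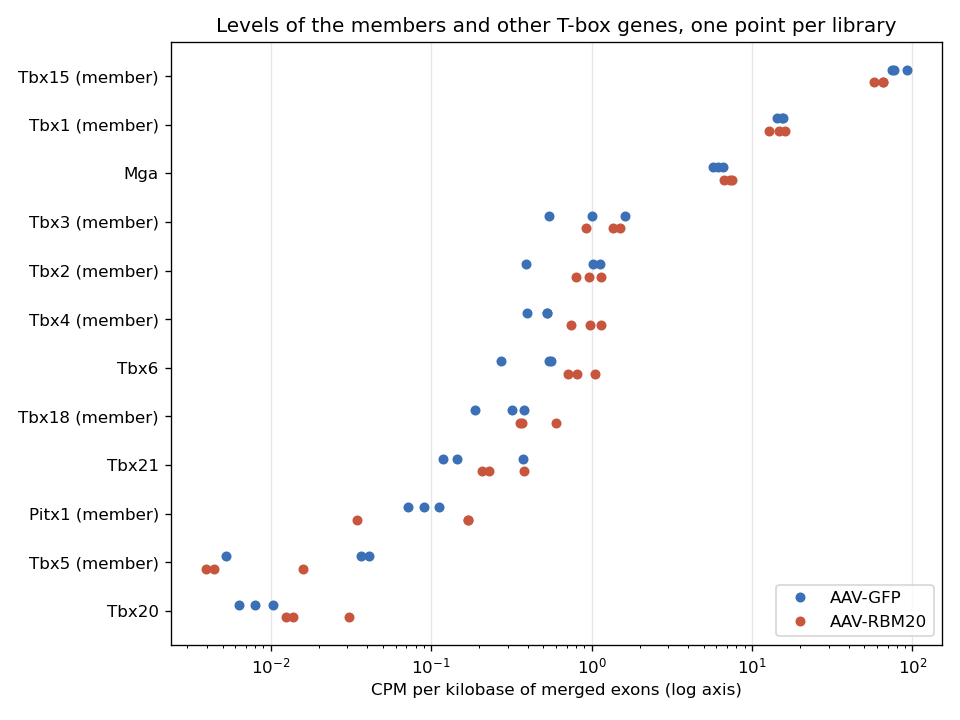
Level of each member and other T-box gene with a count in every library, as CPM per kilobase of merged exons on a log axis, with 1 point per library in blue for AAV-GFP and red for AAV-RBM20. Tbx15 and Tbx1 lie above all other genes, and Tbx5 and Tbx20 lie lowest.

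Among the T-box genes that are not members, Mga, a large MAX-binding protein with a T-box domain, had the highest level, at 6.66 ± 0.67 CPM per kilobase (SD, n = 6), between Tbx1 and Tbx3. Brachyury (T), Tbx10 and Tbx22 had 0 counts in all libraries, which allows up to 0.055 to 0.075 CPM in a library (3 counts, for counting error only).

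Tbx4 (ENSMUSG00000000094) lies on GRCm38 chromosome 11, 85886422 to 85916097, plus strand, with 10 merged exons, and no other annotated gene overlaps it. Its 3 annotated transcripts begin at 85886422, 85890063 and 85896765. RefSeq's promoter table for GRCm38.p6 held 3 of the 8 members, Tbx1, Tbx4 and Tbx18. The Tbx4 entry is the last of the 3 transcript starts, so that its window lies within the span of the longer transcripts. The 250 bases before the start are shown for Tbx4, the member picked for its difference, and for Tbx1, whose levels in the groups were the most alike, so that the windows of the 2 genes can be compared (5′ to 3′ on the strand of the gene; capitals mark a match to TATAAA on either strand).
Tbx4 promoter, chr11:85896515-85896764, plus strand: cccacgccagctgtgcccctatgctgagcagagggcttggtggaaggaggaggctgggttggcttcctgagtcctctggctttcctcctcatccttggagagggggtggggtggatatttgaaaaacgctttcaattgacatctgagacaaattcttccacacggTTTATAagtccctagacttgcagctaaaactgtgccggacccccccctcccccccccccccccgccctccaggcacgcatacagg
Tbx1 promoter, chr16:18590672-18590921, minus strand: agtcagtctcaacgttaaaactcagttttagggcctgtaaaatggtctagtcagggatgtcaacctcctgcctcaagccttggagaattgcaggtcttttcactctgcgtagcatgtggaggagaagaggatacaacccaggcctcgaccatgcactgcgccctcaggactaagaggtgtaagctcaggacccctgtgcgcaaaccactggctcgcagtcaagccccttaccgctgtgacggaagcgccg
The Tbx4 window held 6 CpG dinucleotides at 58.4% GC and the printed Tbx1 window 10 at 54.4%. A second Tbx1 entry in the table, chr16:18588900-18589149, whose start lies 1772 bases into the annotated gene, held 17 at 67.2% and is not printed. The motifs were searched on both strands. CACGTG, the E-box bound by BMAL1 with CLOCK, occurs in 6.02% of the 32851 windows of the same length in the table, and GGTGTGA, the core of the T-box element, in 3.33%. Neither was in any window of Tbx4, Tbx1 or Tbx18. TATAAA, found in 12.4% of all windows, occurred in Tbx4 alone of the members' windows, on the opposite strand, where it reads TTTATA from 85 bases before the start. The matches are descriptions of these letters only.

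Counts of Tbx4 were 55, 75 and 94 in AAV-GFP replicates 1, 2 and 3, and 212, 133 and 123 in AAV-RBM20 replicates 1, 2 and 3. As CPM these were 1.35, 1.80 and 1.79 with AAV-GFP, against 3.89, 3.31 and 2.53 with AAV-RBM20. Every AAV-RBM20 library was above every AAV-GFP library, with AAV-RBM20 replicate 1 the highest and AAV-GFP replicate 1 the lowest. The mean was 1.65 ± 0.25 CPM (SD, n = 3) with AAV-GFP and 3.24 ± 0.68 CPM in AAV-RBM20, a 1.97-fold difference of the means. The fitted log2 fold change was 0.98 ± 0.25 (SE). Of the genes tested, 7.71% had all AAV-RBM20 libraries above all AAV-GFP libraries in CPM, a share from which nothing is read for a gene picked on that difference. Pooled over libraries, the counts gave 1.66 CPM in AAV-GFP with an exact Poisson 95% interval of 1.45 to 1.89, and 3.27 CPM with an interval of 2.98 to 3.58 in AAV-RBM20, intervals that cover counting error only.

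**Figure D2:**
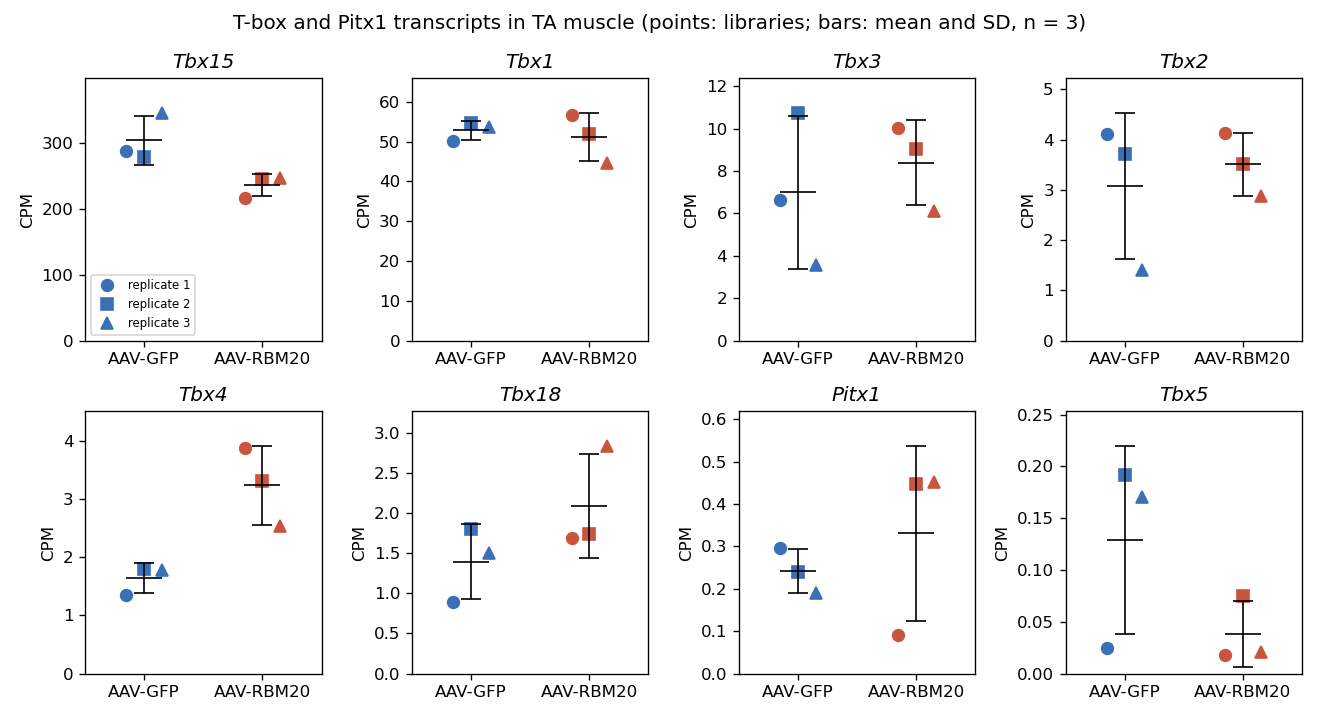
CPM of the 8 members by library, with circles, squares and triangles for replicates 1, 2 and 3 and bars for the mean and SD of each group (n = 3). Each panel has its own axis from 0. The groups separate in Tbx4, where AAV-RBM20 is higher, and in Tbx15, where it is lower, and they overlap in the other 6 panels.

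Values of the genes around Tbx4 did not separate in the same way. Its paralogue Tbx2 ends 44473 bases short of it on chromosome 11 and is the nearest tested gene on that side, and the nearest tested gene after it is Brip1, a DNA helicase of the Fanconi anaemia pathway. In edgeR's quasi-likelihood test the log2 fold change was 0.19 ± 0.38 (SE) for Tbx2, with an adjusted p of 0.892, and 0.56 ± 0.54 for Brip1, with an adjusted p of 0.763. Bcas3, 2610027K06Rik, Brip1os and Ints2, the other genes among the nearest 3 on each side, had log2 fold changes of 0.11, -0.21, 0.24 and -0.21, and none passed the threshold. The genes whose pattern over the 6 libraries was most like that of Tbx4 were the lincRNA Gm13490, Mfsd7a and Ncam1, by the root mean square difference of centred log2 CPM. That difference was 0.10, 0.12 and 0.16, against a median of 0.58 over the 11555 genes compared. Ncam1, a cell adhesion molecule that muscle fibres re-express on denervation, was at 5.17, 6.28 and 6.61 CPM with AAV-GFP, against 10.4, 11.1 and 7.95 CPM with AAV-RBM20. Gm13490, Mfsd7a and Ncam1 were chosen for likeness to Tbx4, so their difference between groups follows from that choice and is given without a test.

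Pitx1 and Tbx5, the hindlimb regulator of Tbx4 and its forelimb counterpart, had few counts. Pitx1 (ENSMUSG00000021506; chromosome 13, 55825051 to 55836192, minus strand) had 12, 10 and 10 counts with AAV-GFP, against 5, 18 and 22 with AAV-RBM20, that is 0.30, 0.24 and 0.19 CPM against 0.092, 0.45 and 0.45 CPM. AAV-RBM20 replicate 1 was below all AAV-GFP libraries and the other AAV-RBM20 libraries were above them. Its fitted log2 fold change came to 0.44 ± 0.61 (SE), with an adjusted p of 0.844 in edgeR's test. Leaving out AAV-RBM20 replicate 3 gave 0.13, AAV-RBM20 replicate 2 gave 0.16, AAV-GFP replicate 3 gave 0.28 and AAV-RBM20 replicate 1 gave 0.90. Pitx1 shares exon bases with the antisense gene Gm47071, which had 7 to 18 counts per library, and since the strand setting of the counting is not given in the sources used here, a count as low as that of Pitx1 is uncertain.

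Tbx5 (ENSMUSG00000018263; chromosome 5, 119832668 to 119885219, plus strand), the forelimb and heart factor, had 1, 8 and 9 counts with AAV-GFP, against 1, 3 and 1 with AAV-RBM20. In 3 of the 6 libraries it was thus at 1 count, and the group totals were 18 and 5. The pooled level was 0.13 CPM in AAV-GFP with an exact Poisson interval of 0.079 to 0.21, and 0.035 CPM with an interval of 0.011 to 0.081 in AAV-RBM20. No fold change is given at this depth. Tbx4 had 224 and 468 counts in the same groups, so the hindlimb paralogue exceeded the forelimb paralogue in each library.

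Tbx15 (ENSMUSG00000027868; chromosome 3, 99240381 to 99354259, plus strand, 10 merged exons) was the most abundant member and the member other than Tbx4 in which the groups did not overlap. Counts were 11688, 11630 and 18230 with AAV-GFP, against 11814, 9836 and 11964 with AAV-RBM20. As CPM these were 288, 279 and 346 with AAV-GFP, against 217, 245 and 246 with AAV-RBM20. All AAV-RBM20 libraries were below all AAV-GFP libraries, as was the case for 9.04% of the genes tested. The mean was 304 ± 36.8 CPM (SD, n = 3) with AAV-GFP and 236 ± 16.7 CPM with AAV-RBM20. Its fitted log2 fold change was -0.37 ± 0.14 (SE), and with an adjusted p of 0.618 in edgeR's test it did not pass the threshold of 0.05. By exact permutation, two-sided, p was 0.1, and 3 against 3 samples cannot give a smaller one. DESeq2 with the replicate number as a block, an alternative chosen after the data were seen, was the one setting of 18 in which Tbx15 passed, with an adjusted p of 0.048. Over these settings the adjusted p ranged up to 0.999. The genes most like Tbx15 in pattern were Samd8, Dcun1d2 and E2f6, with root mean square differences of 0.030, 0.030 and 0.032 of centred log2 CPM.

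Of the 9 markers of skeletal muscle fibres, set here beside Tbx15, 0 passed in edgeR's test. Their summed level ranged from 90921 to 98993 CPM with AAV-GFP, against 58344 to 86807 CPM with AAV-RBM20, with 7 negative and 2 positive log2 fold changes and a median of -0.52, against 0.0090 over all genes tested. Within AAV-RBM20 the sum was lowest in replicate 3, at 58344 CPM, the library in which Tbx15 was the highest of its group. All AAV-RBM20 libraries were below all AAV-GFP libraries in 3 of the 9, the fast troponins Tnnt3 and Tnni2 and the calcium buffer Pvalb, against 9.04% of all genes. The fast myosin heavy chains Myh1 and Myh2 had positive log2 fold changes of 0.42 ± 0.42 and 0.76 ± 0.80 with overlapping groups. Tnnt3, Tnni2, Pvalb, Myh2 and Myh7 were named after their values were seen. The part of muscle fibre content in the result for Tbx15 was not tested, and in bulk muscle fewer cells of a type and less RNA per cell cannot be told apart. Of the 14 fibre-type regulators, which include Maf and Sox6 of the fast fibre programme, 0 passed in edgeR's test. The list's median log2 fold change was -0.050. Sox6, a repressor of slow fibre genes, was at 350, 336 and 321 CPM with AAV-GFP, against 274, 314 and 277 CPM with AAV-RBM20. Maf was at 277, 259 and 294 CPM with AAV-GFP, against 221, 244 and 203 CPM with AAV-RBM20. Mef2c and Tead1, the 2 with the most CPM, had overlapping groups, with log2 fold changes of -0.10 ± 0.19 and 0.14 ± 0.23. Vgll2, a TEAD cofactor named after its values were seen, had all AAV-RBM20 libraries above all AAV-GFP libraries, with 0.54 ± 0.15 as the log2 fold change, and edgeR's test put its adjusted p at 0.618.

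Tbx1 (ENSMUSG00000009097; chromosome 16, 18580979 to 18590671, minus strand), the second most abundant member, varied least between libraries relative to its mean. It was at 52.8 ± 2.40 CPM (SD, n = 3) with AAV-GFP and 51.2 ± 6.13 CPM in AAV-RBM20, and all 6 libraries fell between 44.7 and 56.8 CPM. Its fitted log2 fold change was -0.045 ± 0.13 (SE), smaller than the spread between replicates, with an adjusted p of 0.931 in edgeR's test. Within the summed level of the members, AAV-GFP replicate 3 had the largest share of Tbx15, at 84.3%, and AAV-RBM20 replicate 1 the smallest, at 74.0%, with Tbx1 at 13.9% and 20.7% in these libraries.

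Tbx2 and Tbx3 differed more between replicates than between vectors. Tbx2 (ENSMUSG00000000093; chromosome 11, 85832551 to 85841948, plus strand) was at 4.11, 3.71 and 1.41 CPM with AAV-GFP, against 4.12, 3.51 and 2.88 CPM with AAV-RBM20. Tbx3 (ENSMUSG00000018604; chromosome 5, 119670669 to 119684724, plus strand) was at 6.64, 10.8 and 3.57 CPM with AAV-GFP, against 10.03, 9.03 and 6.14 CPM with AAV-RBM20. In both genes and both groups the library numbered 3 was the lowest. The log2 fold change of Tbx3 was 0.27 ± 0.37 (SE), with an adjusted p of 0.842 in edgeR's test, and that of Tbx2 is given above beside Tbx4. Without AAV-GFP replicate 3 these values turned to -0.16 for Tbx2 and -0.053 for Tbx3. The summed endothelial markers had the same low libraries, at 138 CPM in AAV-GFP replicate 3 against 295 and 329 CPM in replicates 1 and 2, and at 212 CPM in AAV-RBM20 replicate 3 against 328 and 296 CPM. All 5 of these markers were detected, and their part in the levels of Tbx2 and Tbx3 was not tested. The pericyte and smooth muscle sums were also lowest in replicate 3 of each group, at 932 CPM with AAV-GFP and 953 CPM with AAV-RBM20. So were the HoxC sums, at 86.0 and 60.6 CPM, and the share of Ttn. The fibroblast sums were highest in these libraries, at 1654 and 1508 CPM. The gene nearest to Tbx2 in pattern was Hoxa5, with a root mean square difference of 0.045, and the one nearest to Tbx3 was Prkd2, with 0.074. An overlapping gene, Tbx3os1, shares 115 exon bases with Tbx3 and had 21 to 67 counts per library.

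Tbx18 (ENSMUSG00000032419; chromosome 9, 87702800 to 87731260, minus strand) was at 0.886, 1.80 and 1.501 CPM with AAV-GFP, against 1.69, 1.74 and 2.84 CPM with AAV-RBM20. AAV-RBM20 replicate 3 was the highest library, and the other AAV-RBM20 libraries fell between AAV-GFP replicates 3 and 2. Its fitted log2 fold change was 0.58 ± 0.35 (SE), with an adjusted p of 0.660 in edgeR's test and an exact permutation p of 0.3. It was 0.30 without AAV-RBM20 replicate 3. The summed level of the pericyte and smooth muscle markers ranged from 932 to 1107 CPM with AAV-GFP, against 953 to 1034 CPM with AAV-RBM20, with 4 of 8 log2 fold changes positive and a median of -0.039. Their part in the level of Tbx18 was not tested. Plod2, a collagen lysyl hydroxylase, was the gene most like Tbx18 in pattern, with a root mean square difference of 0.098. Tbx18 shares 970 exon bases with D030062O11Rik on the opposite strand, which had 0 to 2 counts per library.

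Counted together, 0 of the 6 tested members other than Tbx4 were below an adjusted p of 0.05 by edgeR's test, and the share over all genes tested was 0.0%. At an unadjusted p under 0.05 there was 1 member, Tbx15, lower in AAV-RBM20, where the share over all genes was 3.82% lower, 4.08% higher and 7.9% in either direction. The groups did not overlap in 1 of these 6 members, again Tbx15, against 16.8% of all genes in either direction. DESeq2 and limma-voom without the block called 0 of the 6 as well. Of the 6 log2 fold changes, 4 were positive, where 51.3% of all genes tested had a positive value. In the plot of fold changes the SE of Tbx1, Tbx2, Tbx3 and Pitx1 reaches across 0, and that of Tbx15 and Tbx18 does not. Such a bar is not a test, and the groups of Tbx18 overlapped, with an unadjusted p of 0.132 in edgeR's test.

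**Figure D3:**
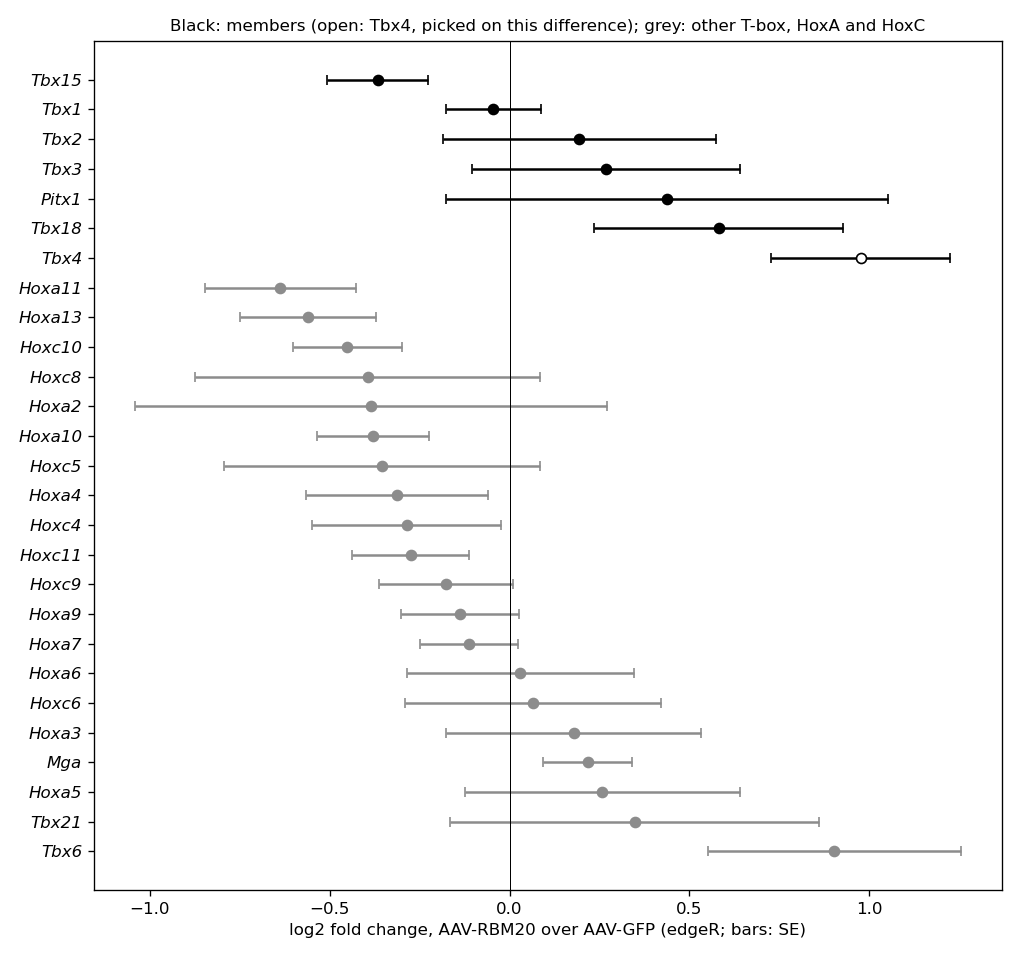
Log2 fold change of AAV-RBM20 over AAV-GFP with its SE from the edgeR fit to all 6 libraries, for the 7 members that passed the low-count filter in black and for the tested genes of the other T-box, HoxA and HoxC lists in grey. Tbx4, shown open, was picked on this difference. The values run from Tbx15 at -0.37 to Tbx4 at 0.98 among members. Tbx4 is given without a test, and no other gene shown passed the adjusted threshold.

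The other genes of the family were examined by the same fit. Of the 10 further T-box genes 7 had a count and 3 were tested, and all 3 had positive log2 fold changes without passing. Tbx6, a factor of the presomitic mesoderm, was at 0.98, 1.01 and 0.49 CPM with AAV-GFP, against 1.47, 1.89 and 1.28 CPM with AAV-RBM20, with no overlap. Its fitted log2 fold change came to 0.90 ± 0.35 (SE), the nearest to that of Tbx4 among the T-box genes, with an adjusted p of 0.618 in edgeR's test. Mga was at 93.8, 101.5 and 88.1 CPM with AAV-GFP, against 102.4, 111.4 and 115.5 CPM with AAV-RBM20. Its log2 fold change was 0.22 ± 0.12, and edgeR's test put its adjusted p at 0.657. Tbx21, the T-bet factor of T cells, had overlapping groups and a log2 fold change of 0.35 ± 0.51. The heart factor Tbx20, with 4 to 20 counts per library, Tbr1, Eomes and Tbx19 were under the filter.

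Hox genes, which record position along the body and limb axes, gave the setting of the members. Hoxc10, a hindlimb-level gene, was the most abundant of them per length, with 24.9 CPM per kilobase over all libraries. It was at 52.1, 52.5 and 59.9 CPM with AAV-GFP, against 41.0, 46.0 and 33.4 CPM with AAV-RBM20. Hoxa10 followed at 15.9, 17.7 and 22.3 CPM with AAV-GFP, against 14.7, 13.2 and 15.0 CPM with AAV-RBM20. In both genes every AAV-RBM20 library was below every AAV-GFP library. Hoxa13, a gene of the distal limb, likewise had 6.13, 6.95 and 7.31 CPM against 3.83, 4.35 and 5.64 CPM. Hoxa9 and Hoxa7, which had more CPM than Hoxa13, overlapped between groups, with log2 fold changes of -0.14 ± 0.16 and -0.11 ± 0.14, and so did Hoxc11, Hoxc4 and Hoxc9. All AAV-RBM20 libraries were below all AAV-GFP libraries in 4 of 10 HoxA, 1 of 7 HoxC, 0 of 6 HoxB and 0 of 3 HoxD genes tested, beside 9.04% of all genes. None of the Hox genes passed, and the adjusted p of Hoxc10, Hoxa10 and Hoxa13 was 0.618 each in edgeR's test. Over the HoxA genes 7 of 10 tested had negative log2 fold changes with a median of -0.23, and over the HoxC genes 6 of 7 with a median of -0.29. The medians of the HoxB and HoxD genes were -0.037 and -0.16, over 6 and 3 genes tested. Summed, the HoxC genes ranged from 86.0 to 95.8 CPM with AAV-GFP, against 60.6 to 79.2 CPM with AAV-RBM20, and the HoxA genes from 56.5 to 60.9 CPM and from 47.7 to 51.0 CPM.

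**Figure D4:**
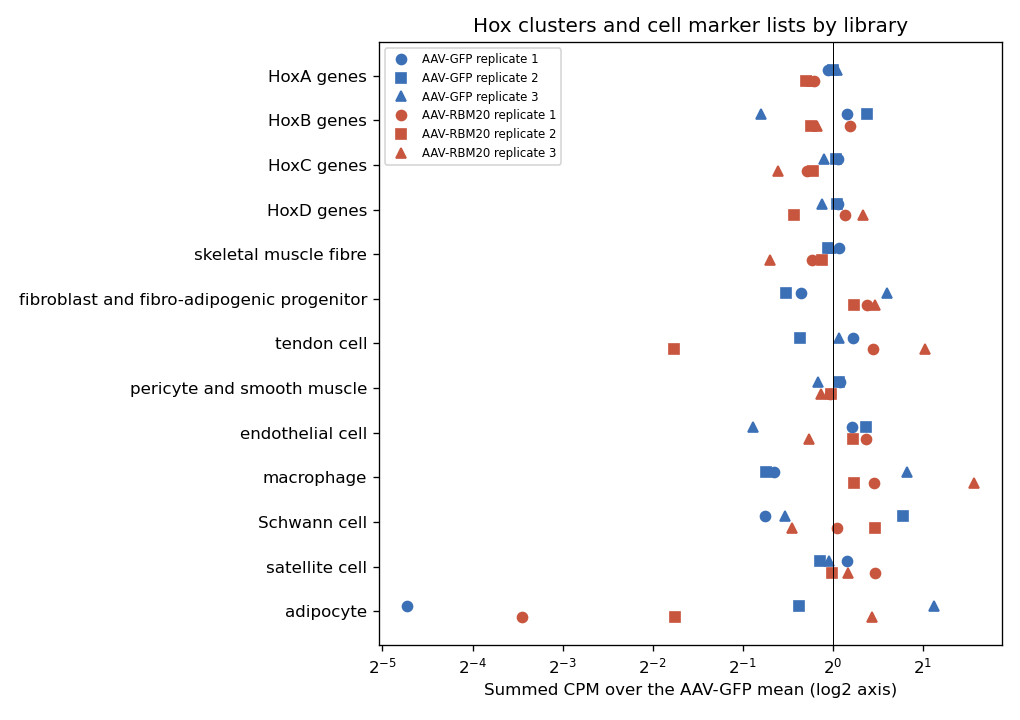
Summed CPM of each Hox cluster and cell marker list in each library, divided by the mean of the AAV-GFP libraries, on a log2 axis, with blue for AAV-GFP, red for AAV-RBM20 and the marker shape for the replicate number. HoxA, HoxC and muscle fibre sums are lower in all AAV-RBM20 libraries, while the adipocyte and tendon cell sums spread most between libraries.

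Tbx4, Prrx1 and other factors of limb mesenchyme are best known from connective tissue, so their markers were set beside Tbx4. Of the 24 mesenchyme factors listed, 18 were tested, 9 had positive and 9 negative log2 fold changes, and 0 passed in edgeR's test. The median was -0.0053. In 5 of the 18, every library with AAV-RBM20 exceeded every one with AAV-GFP, beside 7.71% of all genes. The reverse held in 1, Sall4, beside 9.04%. The 5 were Tcf4, Prrx2, Lmx1b, Twist2 and Emx2. Sall4 and the last 4 of these were named after their values were seen. Fitted log2 differences of these 4 were 1.41, 0.81, 0.76 and 0.35. Prrx2, the largest, was at 0.12 to 0.741 CPM with AAV-GFP, against 0.746 to 1.25 CPM with AAV-RBM20. Prrx1, a marker of limb mesenchyme, was at 79.9, 84.0 and 114 CPM with AAV-GFP, against 89.6, 88.8 and 121 CPM with AAV-RBM20. Tcf4, a transcription factor of the E protein family, was at 138, 137 and 122 CPM with AAV-GFP, against 164, 141 and 153 CPM with AAV-RBM20. Its groups did not overlap, and its adjusted p was 0.663 in edgeR's test. Tcf7l2, a different gene of the list, was at 15.9, 16.1 and 8.47 CPM with AAV-GFP, against 16.7, 17.5 and 12.2 CPM with AAV-RBM20. Its groups overlapped, with a log2 fold change of 0.20 ± 0.26, and it was named after its values were seen. Among the 14 limb signals 9 were tested, 6 had positive values, and 0 passed. Fgf10, a limb bud target of Tbx4 and Tbx5, had 0 to 6 counts per library.

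Fibroblast and fibro-adipogenic progenitor markers had positive log2 fold changes in 7 of 7 genes, with a median of 0.32 and overlapping sums of 759 to 1654 CPM with AAV-GFP, against 1284 to 1508 CPM with AAV-RBM20. Macrophage markers also had 7 of 7 positive, with a median of 0.82 and sums of 16.7 to 49.5 CPM against 32.9 to 82.8 CPM. The highest fibroblast library was AAV-GFP replicate 3, in which Tbx4 was at 1.79 CPM, and the highest macrophage library was AAV-RBM20 replicate 3, in which Tbx4 was lowest of its group. Tendon cell markers were lowest in AAV-RBM20 replicate 2, at 30.0 CPM, where Tbx4 was at 3.31 CPM, and highest in AAV-RBM20 replicate 3, at 209 CPM. The satellite cell sums ranged from 12.8 to 15.8 CPM with AAV-GFP, against 14.0 to 19.5 CPM with AAV-RBM20. They were highest in AAV-RBM20 replicate 1, the library in which Tbx4 was also highest, at 3.89 CPM. Schwann cell sums reached from 9.78 to 18.6 CPM with AAV-RBM20, inside the AAV-GFP range that began at 7.97 CPM, with 4 of 5 genes positive. The adipocyte list was at 0.098 to 5.70 CPM and 0.24 to 3.52 CPM, with Adipoq at 0 counts in replicate 1 of both groups. The part of these cell types in the level of Tbx4 was not tested.

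**Figure D5:**
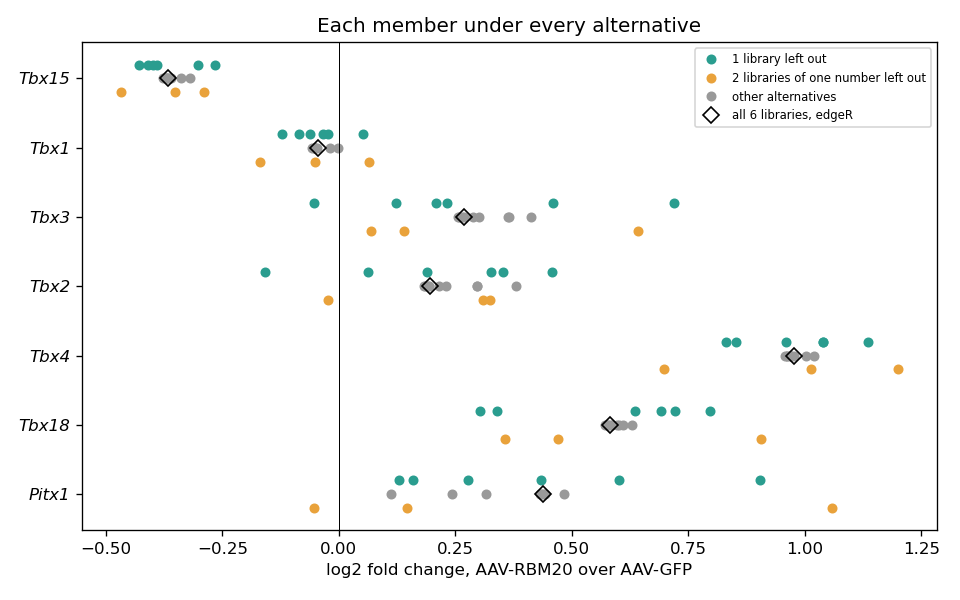
Log2 fold change of each tested member under every alternative, with diamonds for the fit to all 6 libraries and points coloured by whether 1 library, both libraries of a number or none was left out. Tbx4, picked on this difference, and Tbx18 have all points above 0 and Tbx15 all below 0, while Tbx1, Tbx2, Tbx3 and Pitx1 have points on both sides.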

How the data were processed

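Values are from 6 ribosomal RNA-depleted, stranded RNA-seq libraries of TA muscle. The authors mapped reads to mm10 with HISAT2 and deposited raw counts per Ensembl gene from HTSeq. Versions, annotation release and strand setting are not given in the sources used here. A signal table, deposited by the authors, holds the counts divided by 1 DESeq2 size factor per library and was used only to check the order of levels. Groups came from the labels. GENCODE M21 gave the symbols and GRCm38 positions, and 260 of 55401 identifiers had no match in it.

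Groups were compared with edgeR 4.0.16 (filterByExpr, TMM, glmQLFit with robust estimation, glmQLFTest) in R 4.3.3, with Benjamini-Hochberg adjustment over 17222 genes and a threshold of 0.05. The SE is the log2 fold change divided by the square root of F. CPM used TMM-scaled library sizes. The exact permutation test used log2 of CPM plus 0.01, and likeness of pattern used log2 CPM with a prior count of 2 over genes with a mean of at least 1. The script was tested on simulated data. Alternatives included DESeq2 1.42.0 and limma-voom (limma 3.58.1).

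The members, the 18 gene lists and the tests were chosen with earlier results of these data known. Named genes were all members, other T-box genes with a count, up to 4 genes per list (those past the threshold, then the most abundant), the 3 nearest tested neighbours of Tbx4 on each side and the 3 genes most like each member. Some genes of the lists are not reported here.

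Replicate numbers are shared in the titles, whereas the descriptions number the AAV-RBM20 samples on. Across genes, deviations from the group mean correlated at 0.42, 0.20 and 0.48 between libraries numbered 1, 2 and 3. Each was above the set minimum of 0.1. The labels do not say what the replicate numbers mark. In the study's lane list for its protein blots, some animal numbers appear with both vectors, AAV-GFP marked R and AAV-RBM20 marked L. Other animals appear with AAV-GFP but not AAV-RBM20, or the reverse, and the list does not say which animals gave the RNA. A pairing of the samples is therefore not established. Reported fold changes and p-values are from the fit without a replicate block, and the exact permutation test was unpaired. If the replicate numbers do pair the samples, these values leave the pairing out. Blocked values are given where they change a call. AAV-GFP replicate 2 correlated at 0.22 with AAV-RBM20 replicate 1, above its 0.20 with AAV-RBM20 replicate 2. The chi-square per degree of freedom between replicates was 15.1 or more, so no library was a copy of another.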

Additional observations from a re-analysis of the deposited data

How the results depend on the processing

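The log2 fold change of Tbx4 ranged over 18 alternatives from 0.70 without both libraries numbered 1 to 1.20 without both numbered 3, and from 0.83 to 1.14 when any single replicate was left out. Its sign was fixed by how it was picked and is no sign of stability. Tbx18 ranged from 0.30 to 0.91 and Tbx15, whose groups do not overlap, from -0.47 to -0.27. The sign reversed for Tbx1 without AAV-RBM20 replicate 3 (0.053) and without both libraries numbered 3 (0.064), for Tbx2 without AAV-GFP replicate 3 (-0.16) and without both numbered 3 (-0.024), for Tbx3 without AAV-GFP replicate 3 (-0.053), and for Pitx1 without both numbered 3 (-0.054). None of these passed. With any single replicate left out, the values spanned -0.12 to 0.053 for Tbx1, -0.16 to 0.46 for Tbx2, -0.053 to 0.72 for Tbx3 and 0.13 to 0.90 for Pitx1, for which limma-voom gave 0.11. The cause was not tested. With the longest transcript as length, the level of Tbx1 was 20.7 CPM per kilobase in place of 14.8.

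Over all genes the count past an adjusted p of 0.05 was 0 in edgeR's test, with 1360 genes at an unadjusted p under 0.05. It was 8 with no filter on low counts, 25 with the replicate block, 75 with DESeq2, 690 without both libraries numbered 3 and 513 with DESeq2 and the replicate block, and 0 in the other alternatives, also whenever a single replicate was left out. Among the members other than Tbx4 it was 0 in all but DESeq2 with the replicate block, which called 1, Tbx15. Among the genes of the fixed lists it rose from 0 of 126 tested to 1 with the replicate block, the leukocyte gene Ptprc. Without both libraries numbered 3 it was 18 of 125, against 690 of 17250 over all genes. With DESeq2 and the replicate block it was 11 of 126, against 513 of 17222 over all genes. The lists were chosen with earlier results of these data known, so nothing is read from these shares. The block changed no call of a member in edgeR, where the adjusted p of Tbx15 was 0.153. Removing both libraries numbered 1 or numbered 2 and DESeq2 with the block were added after the data were seen. Counts under 25 per library, as in Pitx1 and Tbx5, limit what can be said of these genes.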
